A study of Mus musculus with 24 samples.

Results

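The tumors described here are the day 14 intratibial tumors treated with cabozantinib (cabo), with or without the IL-27 vector: 3 tumors of the IL-27+cabo group (mice 20, 22 and 24) and 3 of the cabo group (mice 21, 25 and 27), of 24 samples in the series. They were chosen by treatment and harvest day as labelled, with no measured value. All 6 grew from TC2Ras-Luc cells. TC2Ras is a TRAMP-C2 mouse prostate adenocarcinoma line that carries activated H-Ras and an added mouse androgen receptor, and the injected cells also express firefly luciferase, so every tumor comes from 1 cell line. The cells were injected into the tibiae of immune competent male C57/BL6 mice, 8 to 10 weeks old. A vector encoding IL-27 (IL-27+cabo group) or the empty control vector (cabo group) was delivered to the tibialis anterior muscle, which lies beside the injected bone, with sonoporation, and both groups then received cabo daily by gavage. The tumors were taken at day 14. The labels give a different mouse number for each tumor. The series also holds day 14 tumors without cabo (IL-27 vector or empty vector, both with the polyvinylpyrrolidone vehicle, 3 each) and tumors of the same 4 treatments taken at the ethical endpoint (EOS, 2 each). The question of the comparison is what the IL-27 vector adds when cabo is already given.

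IL-27 is a cytokine of the IL-12 family, made of the subunits p28 (Il27) and Ebi3, which binds Il27ra paired with gp130 (Il6st) on lymphocytes and myeloid cells and signals through Janus kinases and STAT factors. Its known targets include T-bet, Socs genes, IL-10, PD-L1 and a set of genes shared with the interferons. Cabo is an oral kinase inhibitor that blocks MET, the VEGF receptors, AXL and RET, and so acts on tumor cells, vessels and bone cells.

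Poly(A) RNA was sequenced and deposited as read counts per gene. The 6 libraries held 63729005 to 73610110 counts on genes. Epithelial and tumor markers were present in every tumor: Krt8, an epithelial keratin, measured 36.3 to 211 CPM (read counts relative to the library size scaled by TMM factors), Epcam 2.28 to 6.31 CPM and Hras 17.1 to 85.5 CPM. Skeletal muscle genes were also present in all 6 tumors, with the actin Acta1 at 325 to 1181 CPM. The bone markers Bglap, Bglap2, Ibsp and Sost were too low to be tested.

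The library of mouse 20 stood apart from the other 5. Its correlation with mice 22 and 24 was r = 0.957 and 0.960 over genes, where mice 22 and 24 correlated at 0.997 and the cabo tumors at 0.997 to 0.998 (a description across genes, which are not replicates). The difference followed transcript length. With genes split into 4 equal classes by length, the median deviation of mouse 20 from the mean of the other 5 tumors was 1.18 on the log2 scale in the shortest class, then 0.28 and −0.29, and −0.86 in the longest. The same medians lay between −0.05 and 0.06 in the other 5 tumors. The 84 ribosomal protein genes, which are short, took 13.73% of the counts of mouse 20 and 2.98% to 5.29% in the other 19 intratibial libraries. Over all 20 of these libraries, the Spearman correlation across genes between transcript length and the deviation of a library was −0.34 in mouse 20, −0.31 and −0.19 in mice 8 and 6 of the day 14 IL-27 group without cabo, and −0.18 to 0.17 in the other 17. Whether this came from the tumor, the RNA or the library was not tested. Most results below are also given without mouse 20, which leaves 2 tumors against 3.

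**Figure D1:**
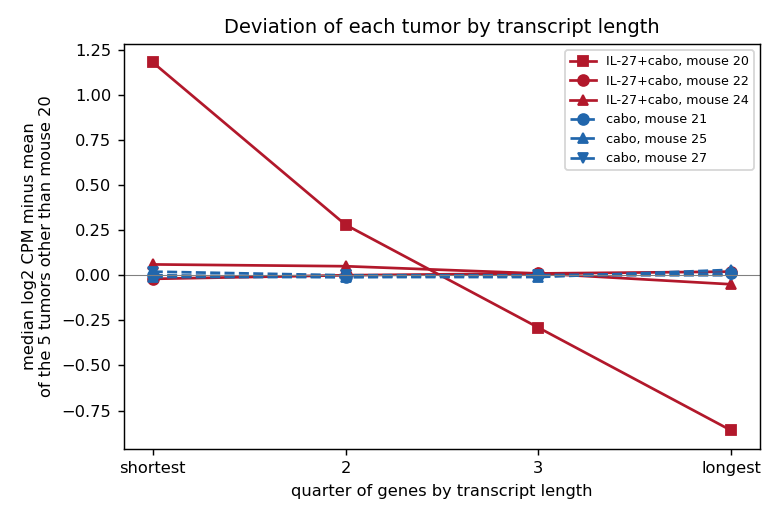
Median deviation of each tumor (y axis, log2 CPM minus the mean of the 5 tumors other than mouse 20) in each of 4 classes of genes by transcript length (x axis, shortest to longest). Red solid lines are IL-27+cabo tumors and blue dashed lines cabo tumors; the line of mouse 20 runs from 1.18 to −0.86 while the other 5 stay between −0.05 and 0.06.

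No gene passed the test between the IL-27+cabo and cabo tumors. Of 18662 genes tested with edgeR's quasi-likelihood test, 0 (0%) had a Benjamini-Hochberg adjusted p under 0.05, and the lowest adjusted p was 0.788. At an unadjusted p under 0.05, 305 genes were higher with the IL-27 vector (1.63% of those tested) and 54 were lower (0.289%), 359 in all. DESeq2 called 3 genes at an adjusted p under 0.05, of which Ugt1a1 was higher and Prg4 and Zfp759 were lower. The median 95% interval reached 0.95 on either side of a gene's log2 fold change. SE is the standard error of a log2 fold change. Differences are thus given below as values, with higher and lower used in place of a call.

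A differentially expressed gene (DEG) is taken here as one that differs by 1.5 or more on the log2 scale in either direction with an unadjusted p under 0.05, the stricter of the limits that the study words in different places. By this limit, 180 genes were higher (0.965%) and 13 were lower (0.0697%). With the same limit read as a fold change that is not on the log2 scale, 303 were higher (1.62%) and 48 lower (0.257%). Of the 180 higher DEGs, mouse 20 had the most extreme value of its group in 161. Their median transcript length was 1251 bases, against 2971 over all genes tested, and 25 of them met the threshold without mouse 20. Of the 13 lower DEGs, mouse 20 was the most extreme in 4, and 10 met the threshold without it. Without mouse 20, 67 genes were higher and 85 lower by the same threshold. The groups did not overlap in 1114 genes that were higher (5.97%) and 1159 that were lower (6.21%). Without mouse 20, edgeR again called 0 genes of 19241, with 504 higher (2.62%) and 539 lower (2.8%) at an unadjusted p under 0.05. The median standard error over genes was then 0.17, against 0.4 with all 6 tumors. DESeq2 without mouse 20, an alternative chosen after the data were seen, called 35 genes higher (0.121% of 28867) and 31 lower (0.107%).

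The genes of the IL-27 pathway did not pass the test in either direction. All 19 genes of a list of the cytokine, its receptor, its kinases and STAT factors and its known targets were tested, and 0 passed at an adjusted p under 0.05. In 5 the log2 fold change was above 0, and the list median was −0.32, against 0.02 over all genes. Without mouse 20 the list median was −0.08. The p28 subunit, Il27 (chr7:126589010-126594941, GRCm38), measured 0.822, 0.287 and 0.138 CPM in IL-27+cabo mice 20, 22 and 24 and 0.0831, 0.228 and 0.225 CPM in cabo mice 21, 25 and 27. Mouse 20 was the highest and the other 5 overlapped, and the log2 fold change of 1.20 had a 95% interval from −0.81 to 3.20 and was 0.25 without mouse 20. The partner subunit Ebi3 measured 5.60, 3.22 and 2.78 CPM against 3.63, 3.63 and 2.11 CPM. The vector was delivered to muscle, and how far its transcript would be counted on these genes is not known from the sources used here, so these values do not check its delivery.

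The receptor chain Il27ra measured 3.39, 3.81 and 5.25 CPM with the IL-27 vector and 5.0, 4.06 and 3.85 CPM without it. The groups overlapped, at a log2 fold change of −0.05 (95% interval −0.73 to 0.62). Gp130 (Il6st), which Il27ra shares with the IL-6 receptor, was at 63.3 CPM in mouse 20 and at 187 to 235 CPM in the other 5 tumors. Of the downstream genes, Socs1, an inhibitor of Janus kinases, differed by 1.03 on the log2 scale (SE 0.53), with 8.24 CPM in mouse 20 and 1.84 to 2.95 CPM in the other 5; without mouse 20 the difference was 0.29. Socs3, which inhibits gp130 signaling, measured 42.1, 59.4 and 60.0 CPM against 66.7, 62.3 and 62.9 CPM. Here the groups did not overlap, with the IL-27+cabo tumors lower, at a log2 fold change of −0.25 (−0.10 without mouse 20). PD-L1 (Cd274) measured 15.3, 28.7 and 19.2 CPM against 26.5, 33.3 and 24.05 CPM, which overlapped. IL-10 (Il10) measured 2.45 CPM in mouse 20 and 0.443 and 0.455 CPM in mice 22 and 24, against 0.762, 0.282 and 1.18 CPM in the cabo tumors, so that its log2 fold change of 0.58 turned to −0.72 without mouse 20.

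The gene of the list with the lowest unadjusted p was Prdm1, which encodes Blimp-1, a repressor that T cells and plasma cells use late in differentiation. It measured 6.52, 14.2 and 8.98 CPM in the IL-27+cabo tumors and 19.1, 17.2 and 16.7 CPM in the cabo tumors. All 3 IL-27+cabo tumors lay below the cabo tumors, by −0.83 ± 0.32 (SE) on the log2 scale, with an edgeR adjusted p of 0.788. Without mouse 20 the log2 fold change was −0.61.

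**Figure D2:**
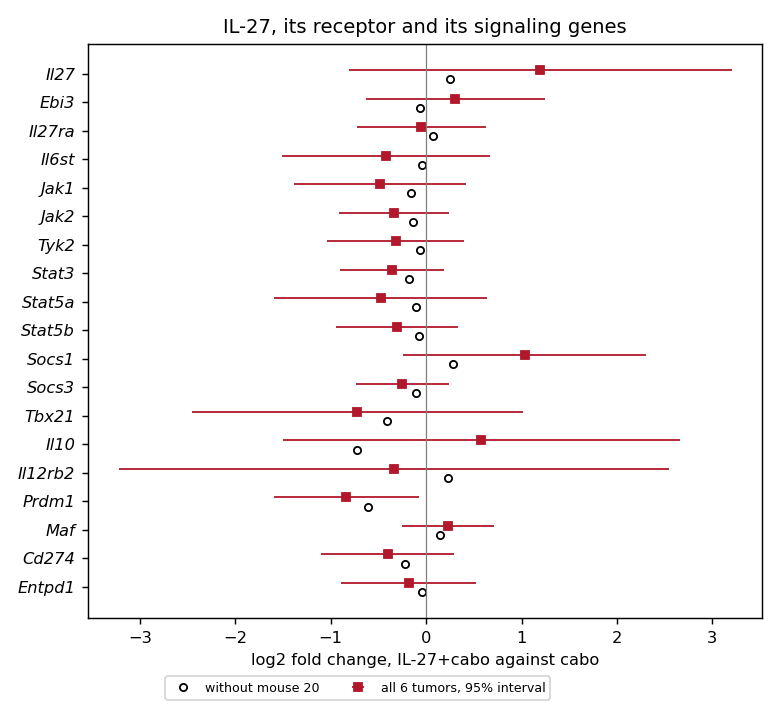
Log2 fold change of the IL-27+cabo against the cabo tumors (x axis) for the 19 genes of the IL-27 list (y axis), with red squares and lines for all 6 tumors and their 95% intervals and open circles for the fit without mouse 20. Every interval but that of Prdm1 (−1.60 to −0.07) spans 0, and the widest are those of Il12rb2, Il10 and Il27.

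No interferon-stimulated gene reached an unadjusted p under 0.05 between the groups. IL-27 and the interferons share STAT factors that act through short promoter elements, and many promoters of the genes on these lists hold a match to one. The stretches below run from 110 to 11 bases before the RefSeq start of Isg15, a ubiquitin-like protein conjugated to others in antiviral states, and of Gbp2, a guanylate-binding protein that attacks vacuoles of intracellular pathogens. They are read 5′ to 3′ on the gene's strand, and capitals mark each match to GAAANNGAA on either strand, the core of the interferon-stimulated response element.
Isg15 (chr4:156200829-156200928, GRCm38.p6, minus strand): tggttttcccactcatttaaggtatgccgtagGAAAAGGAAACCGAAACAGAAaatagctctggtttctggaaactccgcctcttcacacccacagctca
Gbp2 (chr3:142620553-142620652, GRCm38.p6, plus strand): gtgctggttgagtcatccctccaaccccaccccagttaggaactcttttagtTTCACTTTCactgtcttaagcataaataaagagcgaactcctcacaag
Isg15 holds 3 overlapping matches and Gbp2 holds 1, read here as its reverse complement. In promoter windows of 300 bases (250 before and 50 after the start), 16 of the 24 type I interferon-stimulated genes with a RefSeq promoter held GAAANNGAA (66.7%), as did 10 of 11 interferon-gamma inducible GTPases (90.9%), against 9.76% of 27025 genes. TTCNNNGAA, the gamma-activated site, stood in 5 of 24 (20.8%) and 6 of 11 (54.5%), against 9.55%. A match describes the letters only.

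Isg15 measured 93.4, 29.4 and 14.3 CPM in the IL-27+cabo tumors and 17.5, 21.4 and 19.8 CPM in the cabo tumors. Mouse 24 was the lowest of the 6 and mouse 20 the highest. Its log2 fold change, 1.23 (SE 0.65, edgeR adjusted p = 0.788), was 0.16 without mouse 20. Gbp2 measured 43.6, 101.4 and 43.2 CPM against 55.0, 168 and 42.8 CPM, and the spread within each group was larger than the difference between them. Irf7, the factor that amplifies type I interferon, measured 85.7, 77.8 and 44.5 CPM against 33.0, 65.9 and 45.9 CPM. Over the 33 type I interferon-stimulated genes tested, the median log2 fold change was 0.09 (0.16 without mouse 20), and 0 genes had an unadjusted p under 0.05 in either direction with or without that tumor. Over 17 interferon-gamma inducible GTPases the median was −0.36 (−0.10 without mouse 20), also with 0 at an unadjusted p under 0.05. The chemokines Cxcl9 and Cxcl10, which draw CXCR3-bearing T cells, overlapped between the groups. Cxcl9 measured 8.74, 29.8 and 14.2 CPM against 19.2, 79.4 and 10.2 CPM, with the highest and a low value both among the cabo tumors. The medians of MHC class I antigen processing (0.34) and MHC class II (0.16) turned to −0.07 and −0.41 without mouse 20.

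Of 21 T cell genes tested, 17 had lower values in the IL-27+cabo tumors and 0 passed the test. In bulk tumors, fewer cells of a type and less RNA per cell cannot be told apart. The median log2 fold change was −0.37, and 2 were lower and 0 higher at an unadjusted p under 0.05. Without mouse 20 the median was −0.50, with 4 lower. The shares of all genes lower at that p were 0.289% and 2.8%. Mice 22 and 24 both lay below every cabo tumor in 8 of the 21, against 10.9% of all genes tested. Bcl11b, a factor that keeps T cell identity, measured 0.593, 0.417 and 0.689 CPM in IL-27+cabo and 1.10, 1.35 and 1.03 CPM in cabo tumors. Cd247, the zeta chain of the receptor complex, measured 1.19, 1.27 and 0.785 CPM against 2.07, 1.77 and 2.07 CPM. For both genes all IL-27+cabo tumors lay below the cabo tumors, at log2 fold changes of −1.03 and −0.87 (−1.07 and −0.94 without mouse 20). Cd3e, another chain of the complex, measured 1.61, 1.67 and 1.53 CPM against 2.00, 2.78 and 3.04 CPM, at a log2 fold change of −0.70. Cd3d did not share this order, with 2.35 CPM in mouse 20 and 0.365 and 0.524 CPM in mice 22 and 24, against 0.352 to 1.18 CPM in the cabo tumors. These are levels of a few CPM, and the medians of the CD8 and cytotoxic list (−0.22), the regulatory T cell list (−0.27) and the NK cell receptor list (0.32) came with 0 genes at an unadjusted p under 0.05 in each. Without mouse 20 these medians were −0.37, −0.12 and 0.23, again with 0 genes in each.

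Among myeloid genes the macrophage list had lower scores (mean log2 CPM over the list) in the IL-27+cabo tumors, 4.50, 4.74 and 4.61 against 4.84, 5.17 and 4.86, while its median log2 fold change was −0.19, and 0.01 without mouse 20. Of its 19 genes 7 had a log2 fold change above 0, and 1 was lower without overlap, against 6.21% of all genes. At an unadjusted p under 0.05, 1 was lower with all tumors (0.289% of all genes were) and 3 without mouse 20 (2.8%). Chil3, a chitinase-like protein of alternatively activated macrophages, measured 5.26, 6.26 and 5.46 CPM against 7.02, 9.80 and 10.2 CPM. Mmp8, the neutrophil collagenase, measured 0.536, 1.08 and 1.21 CPM against 2.12, 2.12 and 1.50 CPM. In both genes the groups did not overlap, at log2 fold changes of −0.67 and −1.02 (−0.62 and −0.74 without mouse 20). Of the 12 neutrophil and marrow granule genes tested, Mmp8 alone was lower without overlap (6.21% of all genes were), and 7 had a log2 fold change above 0, with a median of 0.05 (−0.40 without mouse 20, with 0 higher and 2 lower at an unadjusted p under 0.05, against 2.62% and 2.8% of all genes). Mast cell scores were higher with the IL-27 vector (0.88, 0.36 and 0.37 against 0.21, −0.14 and 0.22), from 7 of 11 listed genes that could be tested. Of these 7, 4 had a log2 fold change above 0, at a median of 0.35, and 1 was higher at an unadjusted p under 0.05 (1.63% of all genes were). Without mouse 20 the median was 0.23, with 0 genes at that p. Mice 22 and 24 both lay above every cabo tumor in 2 of the 7 and below in 2, against 11.1% and 10.9% of all genes. The protease Mcpt4 had 0.995, 0.313 and 0.358 CPM against 0.180, 0.107 and 0.197 CPM, at a log2 fold change of 1.76 that was 1.05 without mouse 20. Hba-a2, an adult globin chain, was at 46.4 CPM in mouse 20 and 2.57 to 7.47 CPM in the other 5, so that its log2 fold change of 2.36 rested on 1 tumor and was 0.53 without it.

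**Figure D3:**
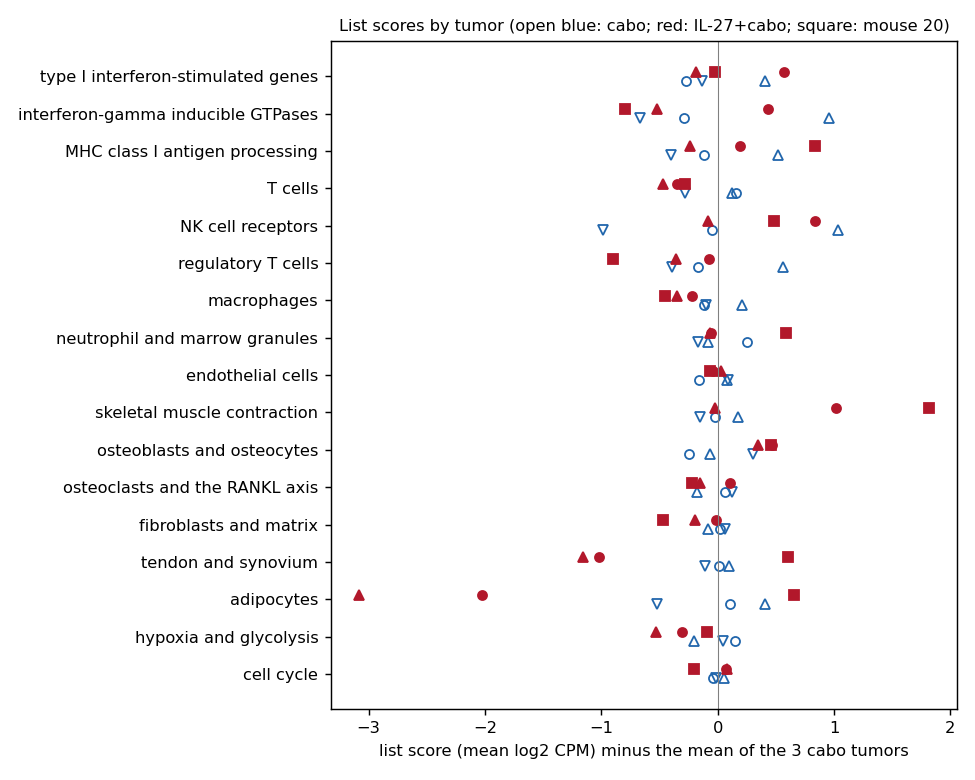
Scores of 17 gene lists in each tumor (x axis, mean log2 CPM over the list's tested genes minus the mean of the 3 cabo tumors), with open blue symbols for cabo tumors, filled red symbols for IL-27+cabo tumors and a red square for mouse 20. Mice 22 and 24 lie far below the cabo tumors for the adipocyte and tendon lists while mouse 20 lies above them, and the muscle scores of mice 20 and 22 are the highest.

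A joint gene and a tendon gene were lower in all 3 IL-27+cabo tumors. Prg4 (chr1:150449412-150466165) encodes lubricin, which synovial lining and superficial cartilage secrete onto joint surfaces. It measured 9.75, 6.76 and 3.97 CPM in the IL-27+cabo tumors and 27.8, 28.2 and 36.0 CPM in the cabo tumors. Every IL-27+cabo tumor lay below every cabo tumor, at a log2 fold change of −2.17 (SE 0.36), with an adjusted p of 0.788 by edgeR. Among the 8 intratibial groups the cabo tumors at day 14 had the most Prg4, 28.8 to 37.3 CPM when all intratibial samples were scaled together, against 0.722 to 4.37 CPM with the IL-27 vector alone, 1.14 to 2.30 CPM in controls and 0.229 to 2.50 CPM at EOS. Thbs4, a thrombospondin of tendon matrix, measured 61.1, 37.9 and 26.5 CPM against 79.2, 100 and 132 CPM, again without overlap, at a log2 fold change of −1.31 (−1.69 without mouse 20).

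Other tendon genes were low in mice 22 and 24 but not in mouse 20. Fmod, a collagen-binding proteoglycan, measured 32.4 CPM in mouse 20, 4.83 and 4.55 CPM in mice 22 and 24, and 20.2, 27.98 and 19.8 CPM in the cabo tumors. Kera, a related proteoglycan, measured 1.61, 0.287 and 0.179 CPM against 1.34, 2.32 and 1.83 CPM. Tnmd, a tenocyte membrane protein, measured 0.822 CPM in mouse 20, was listed at 0 in mice 22 and 24, and was at 0.380 to 0.684 CPM in the cabo tumors. Of the 13 genes of the tendon and synovium list, 6 had a log2 fold change above 0 with all tumors, the median was −0.04, and 2 were lower at an unadjusted p under 0.05, against 0.289% of all genes. Leaving out mouse 20 gave a median of −0.43 and 6 lower, against 2.8% of all genes. DESeq2 without mouse 20, chosen after the data were seen, gave Fmod a log2 fold change of −2.28 (adjusted p = 7.5e-27), Kera −2.97 (adjusted p = 5.59e-06) and Prg4 −2.52 (adjusted p = 4.01e-24). The edgeR fit without mouse 20 called 0 genes. Its lowest adjusted p was 0.126, that of Fmod, and Prg4 had 0.211. Fmod, Kera and Tnmd were singled out after their values were seen. Scx, the tendon transcription factor, was at 26.2 CPM in mouse 20 and 2.51 to 4.01 CPM in the other 5, with no such difference. How much tendon or joint tissue each sample held was not measured apart from these genes.

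Adipocyte genes followed the same order of tumors. The adipokine Adipoq measured 2.45, 0.352 and 0.0551 CPM in mice 20, 22 and 24 and 2.27, 3.70 and 1.38 CPM in the cabo tumors. Cidec, a lipid droplet protein, measured 3.00, 0.0522 and 0 CPM against 1.94, 5.17 and 1.69 CPM. Leptin (Lep) measured 2.24, 0 and 0.0551 CPM against 1.30, 5.11 and 1.53 CPM. For each of these 3 genes, mouse 20 lay within the range of the cabo tumors and mice 22 and 24 lay below it. Over the 9 adipocyte genes tested, 7 had mice 22 and 24 both below every cabo tumor, against 10.9% of all genes. The median of −0.83, with 0 genes at an unadjusted p under 0.05, was −3.37 without mouse 20, with 6 lower at that p (2.8% of all genes were). Without mouse 20, DESeq2 called Cidec (adjusted p = 1.98e-09), Lep (adjusted p = 7.22e-08), Adipoq (adjusted p = 0.00024) and Fabp4 (adjusted p = 0.00443), each lower. These genes were named after their values were seen. The edgeR fit without mouse 20 called 0 genes, with a lowest adjusted p of 0.126. In mouse 20 Fabp4 was at 68.2 CPM, above the 11.8 to 25.9 CPM of the cabo tumors.

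Of 14 genes that respond to low oxygen or serve glycolysis, 10 had lower values with the IL-27 vector, none past the adjusted threshold. Ndrg1, a target of hypoxia-inducible factors, measured 161, 183 and 168 CPM in the IL-27+cabo tumors and 295, 230 and 249 CPM in the cabo tumors. Adrenomedullin (Adm), a vasodilator peptide that hypoxia induces, measured 12.7, 18.8 and 8.76 CPM against 33.3, 22.03 and 31.8 CPM. The carbonic anhydrase Car9 measured 4.84, 3.16 and 3.42 CPM against 5.61, 5.86 and 4.92 CPM. In all 3 genes every IL-27+cabo tumor lay below every cabo tumor, at log2 fold changes of −0.60 (SE 0.18), −1.11 (0.34) and −0.52 (0.27), each with an edgeR adjusted p of 0.788. Without mouse 20 they were −0.56, −1.08 and −0.74. Of the 14 genes of the hypoxia and glycolysis list, 2 were lower (0.289% of all genes were) and 0 higher at an unadjusted p under 0.05, and the median was −0.24. Leaving out mouse 20 gave a median of −0.37 with 7 of 14 lower, against 2.8% of all genes, and DESeq2 then called Ndrg1 (adjusted p = 0.00107) and Bnip3 (adjusted p = 0.0299). The edgeR fit without mouse 20 called 0 genes, with an adjusted p of 0.760 for Ndrg1. In mouse 20 Bnip3 was at 165 CPM, above the 87.4 to 119 CPM of the cabo tumors. Vegfa, the main angiogenic growth factor of this response, measured 142, 143 and 173 CPM against 204, 156 and 202 CPM, which overlapped. Aldoa and Ldha, glycolytic enzymes, were highest in mouse 20 at 2096 and 1498 CPM.

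Of the adrenomedullin receptor genes, 1 was higher in all IL-27+cabo tumors. Ramp2 (chr11:101246028-101259546) encodes the membrane protein that, joined to Calcrl, makes an adrenomedullin receptor on endothelium. It measured 6.12, 5.44 and 5.35 CPM in the IL-27+cabo tumors and 3.01, 2.31 and 2.10 CPM in the cabo tumors. With all intratibial samples scaled together, it was lowest in the day 14 cabo tumors, at 2.17 to 3.12 CPM. The IL-27+cabo tumors, at 5.46 to 5.99 CPM, lay within the range of day 14 controls (4.64 to 6.20 CPM) and of the IL-27 vector alone (3.76 to 6.41 CPM). All 3 IL-27+cabo tumors lay above all cabo tumors, at a log2 fold change of 1.19 (SE 0.26, edgeR adjusted p = 0.788). Without mouse 20 it was 1.12, with an adjusted p of 0.00741 by DESeq2 and 0.728 by edgeR. Calcrl itself measured 6.79, 13.4 and 11.3 CPM against 13.1, 12.2 and 13.8 CPM, and Ramp3 measured 13.9, 2.71 and 1.74 CPM against 2.45, 2.77 and 3.56 CPM. Neither separated the groups, and without mouse 20 their log2 fold changes were −0.08 for Calcrl and −0.40 for Ramp3, which was 1.06 with it. Over 23 endothelial genes the median was −0.09, with 0 at an unadjusted p under 0.05 (−0.08 without mouse 20, with 1 higher, against 2.62% of all genes). Selp, the P-selectin that activated endothelium and platelets expose to catch leukocytes, was lower, at 5.76, 8.91 and 9.15 CPM against 15.8, 13.5 and 14.0 CPM, with no overlap and a log2 fold change of −0.86 (SE 0.25; −0.68 without mouse 20). Over the 23 receptors that cabo targets and their ligands, the median was −0.13, with 0 at an unadjusted p under 0.05. Without mouse 20 it was −0.09, with 1 higher and 3 lower, against 2.62% and 2.8% of all genes.

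**Figure D4:**
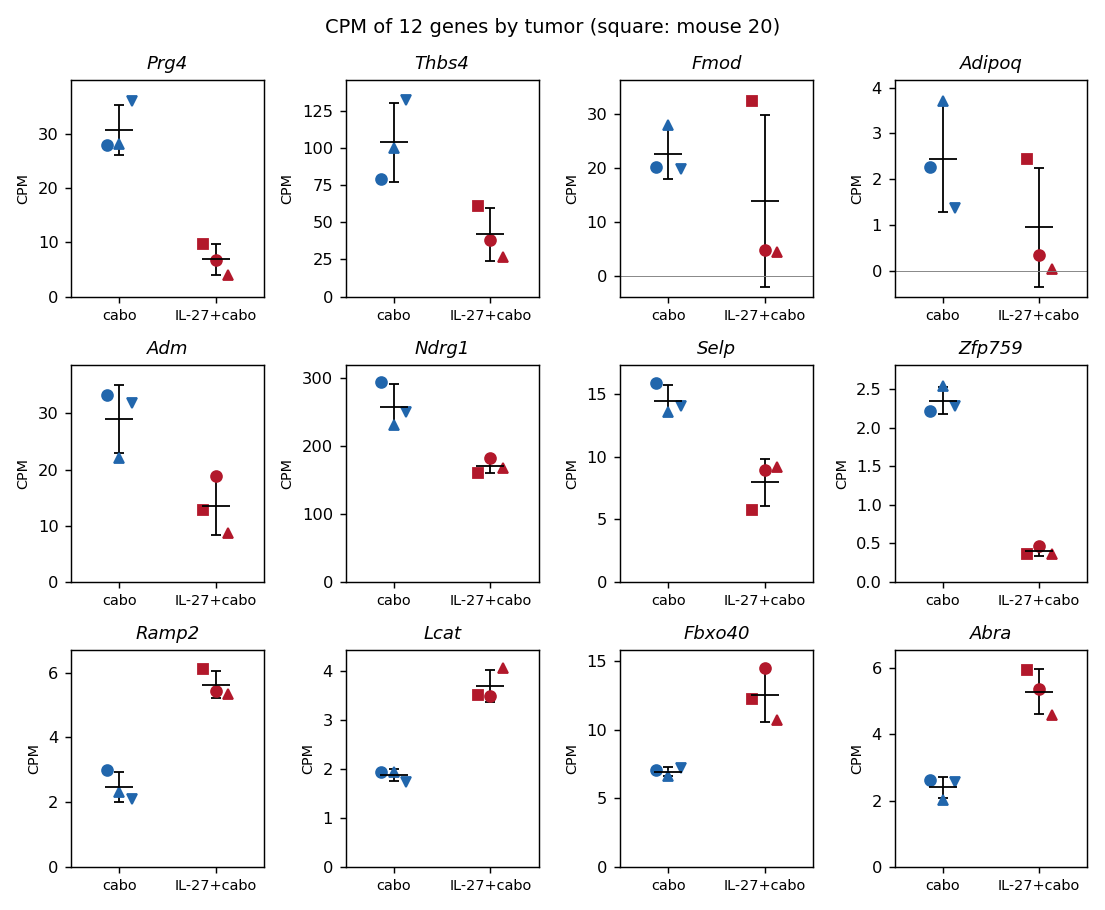
CPM (y axis) of 12 genes in the cabo tumors (blue) and the IL-27+cabo tumors (red; the square is mouse 20), with the mean and SD of 3 tumors per group as black lines. Fmod and Adipoq were low in mice 22 and 24 alone, while in the other 10 genes the groups did not overlap.

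Skeletal muscle genes were higher in mice 20 and 22. The scores of the muscle contraction list were 6.30, 5.5 and 4.46 in the IL-27+cabo tumors and 4.46, 4.66 and 4.33 in the cabo tumors, so mouse 24 lay among the cabo tumors. Of 34 genes tested, 33 had a log2 fold change above 0, 10 were higher (1.63% of all genes were) and 0 lower at an unadjusted p under 0.05, and the median was 1.04. It was 0.64 without mouse 20, with 10 higher against 2.62% of all genes. Myoglobin (Mb), the oxygen store of muscle, measured 199, 68.0 and 32.0 CPM against 19.5, 34.7 and 15.0 CPM. The troponin Tnni2 measured 484, 74.1 and 30.7 CPM against 22.9, 30.2 and 31.2 CPM, with mouse 24 inside the cabo range. Their log2 fold changes of 2.11 and 2.80 were 1.12 and 0.90 without mouse 20. The giant muscle protein Ttn, a long transcript, measured 32.6 CPM in mouse 20 and 144 and 102 CPM in mice 22 and 24, against 53.5 to 84.9 CPM. The muscle at the injected tibia is also where the vector was given, and the share of muscle in each sample was not measured.

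Of the 34 muscle contraction genes, 1 was higher without overlap between the groups, against 5.97% of all genes. Fbxo40 and Abra are not on that list and were named because their groups did not overlap. Fbxo40, a muscle ubiquitin ligase subunit, measured 12.3, 14.5 and 10.7 CPM against 7.05, 6.62 and 7.19 CPM. Abra, an actin-binding protein of striated muscle, measured 5.95, 5.36 and 4.58 CPM against 2.62, 2.02 and 2.56 CPM. Both were higher in all IL-27+cabo tumors, mouse 24 included, at log2 fold changes of 0.85 (SE 0.22) and 1.14 (0.26), and of 0.86 and 1.05 without mouse 20. Xirp2, an actin-binding repair protein of muscle, measured 145 and 138 CPM in mice 22 and 24 against 95.6, 84.2 and 82.0 CPM in the cabo tumors, and 37.7 CPM in mouse 20. It was called by DESeq2 without mouse 20 (log2 fold change 0.69, adjusted p = 6.52e-09) and was chosen after its values were seen. The edgeR fit without mouse 20 called 0 genes.

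Mitochondrial transcripts took 3.31%, 3.95% and 4.58% of counts in the IL-27+cabo tumors and 3.03%, 3.35% and 3.33% in the cabo tumors. The means were 3.95% ± 0.635 and 3.24% ± 0.179 (SD, n = 3 each), and the difference did not pass a two-sided exact permutation test (p = 0.3, where 0.1 is the smallest p that 3 against 3 allows). Of the 13 protein genes of the mitochondrial genome, 12 had a log2 fold change above 0 (median 0.38), and 2 had an unadjusted p under 0.05 by edgeR. Of all genes, 1.63% were higher and 0.289% lower at that p. Without mouse 20 all 13 were higher, between 0.29 and 0.53 on the log2 scale, each at that p (2.62% of all genes were higher), though these genes are read from shared transcripts and are not independent.

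Bone genes gave few differences. Of 17 osteoblast and osteocyte genes, 10 could be tested, and their median was −0.12 although the list scores were higher in the IL-27+cabo tumors (2.93, 2.94 and 2.82 against 2.23, 2.41 and 2.78). The median changed sign, to 0.13 without mouse 20 and to 0.10 with the trend with GC content and length removed. Ifitm5, a membrane protein of mineralizing osteoblasts, measured 0.880, 0.183 and 0.537 CPM against 0, 0 and 0.112 CPM, a level near 0 in each tumor. Runx2, the osteoblast master factor, measured 51.7, 56.0 and 65.1 CPM against 65.4, 63.8 and 64.3 CPM, and Col1a1 1406, 2428 and 2155 CPM against 2238, 2418 and 2196 CPM. Both overlapped. Among osteoclast genes, Itgb3, the integrin with which osteoclasts seal to bone, measured 25.6, 24.3 and 29.9 CPM against 46.1, 30.6 and 40.2 CPM, with no overlap and a log2 fold change of −0.55 (−0.53 without mouse 20). RANKL (Tnfsf11) measured 2.49, 3.18 and 2.98 CPM against 3.44, 3.24 and 3.54 CPM, while the protease Ctsk and the acid phosphatase Acp5 overlapped between the groups and were highest in mouse 20. The collagenase Mmp13 measured 4.86, 3.76 and 4.77 CPM against 8.88, 6.18 and 11.9 CPM, without overlap, at a log2 fold change of −1.01 (−1.08 without mouse 20). The median of the 16 osteoclast and RANKL genes tested was −0.06. Of these, 1 was lower at an unadjusted p under 0.05 (0.289% of all genes were) and 2 were lower without overlap (6.21% of all genes were). Without mouse 20 the median was −0.01 over 17 genes, 1 of them lower at that p (2.8% of all genes were).

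With all 6 tumors, neither tumor cell list held a gene at an unadjusted p under 0.05. Over 16 epithelial and MAPK output genes the median was 0.02, and over 29 cell cycle genes −0.06. The medians without mouse 20 were −0.08, with 3 of 16 genes lower at that p (2.8% of all genes were), and 0.06, with 2 of 29 higher (2.62% of all genes were). Dusp6 and Etv5, which report ERK activity, measured 87.3, 222 and 206 CPM against 261, 233 and 283 CPM, and 49.7, 77.9 and 72.1 CPM against 89.1, 88.0 and 87.2 CPM. The IL-27+cabo tumors were lower in both without overlap, at log2 fold changes of −0.59 and −0.40 (−0.28 and −0.23 without mouse 20). In the cell cycle list, mice 22 and 24 both lay above every cabo tumor in 9 of 29 genes, against 11.1% of all genes.

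Across all 35 lists, which name 587 genes of the file, 540 genes were tested. The lists not described above, such as chemokines other than the CXCR3 ligands, dendritic cells, mural cells and the TNF response, held 0 or 1 gene each at an unadjusted p under 0.05 in either direction. Without mouse 20 they held at most 3 in either direction, with 3 of 12 mural cell genes higher, against 2.62% of all genes. Among them was Il33, an alarmin of stromal nuclei, at 250, 433 and 309 CPM against 701, 385 and 658 CPM, which overlapped (log2 fold change −0.81, and −0.65 without mouse 20). Of the 540 genes, 0 passed at an adjusted p under 0.05, and 14 were higher and 12 lower at an unadjusted p under 0.05, against 1.63% and 0.289% of all genes.

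The protein-coding genes with the lowest p among those whose groups did not overlap also held single genes outside the lists. Zfp759 (chr13:67121660-67141787), a zinc finger protein of the KRAB family, measured 0.363, 0.470 and 0.358 CPM in the IL-27+cabo tumors and 2.22, 2.55 and 2.28 CPM in the cabo tumors. Its log2 fold change was −2.56 (SE 0.32), and it was −2.50 without mouse 20. In the other 7 intratibial groups Zfp759 ranged from 1.39 to 3.84 CPM, so the 3 IL-27+cabo tumors of day 14 were the lowest of all 20. KRAB zinc finger genes have close copies, among which reads can be split. Ugt1a1, an enzyme that conjugates bilirubin, was at 0.306, 0.874 and 0.565 CPM with the IL-27 vector and at 0 in all 3 cabo tumors. Against a floor of 3 counts per library it was at least 14.1-fold higher, but its exons are shared with the other Ugt1a genes, and the counting may assign them to either. Fam124b was at 0 in all IL-27+cabo tumors and at 12 to 20 counts in the cabo tumors, at least 5.08-fold lower. Lcat, which esterifies plasma cholesterol, measured 3.52, 3.50 and 4.07 CPM against 1.94, 1.94 and 1.73 CPM, at a log2 fold change of 0.98. Mgat3, a glycosyltransferase that adds a bisecting sugar to N-glycans, measured 9.83, 9.76 and 10.4 CPM against 17.8, 15.5 and 15.2 CPM. Its groups did not overlap and its log2 fold change was −0.69. Raver1, a splicing regulator, measured 109, 108 and 215 CPM against 73.0, 60.9 and 64.6 CPM, with mouse 24 the highest. Without mouse 20 the log2 fold changes of Lcat, Mgat3 and Raver1 were 1.01, −0.69 and 1.29.

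Of the other 6 genes named by the same rule, 4 were higher and 2 lower. Adprhl1, a hydrolase-like protein of heart and muscle, measured 8.93, 4.88 and 4.67 CPM against 2.70, 2.61 and 2.94 CPM. Nr1i3, the nuclear receptor CAR of xenobiotic metabolism, measured 2.12, 0.417 and 0.358 CPM against 0.139, 0.0536 and 0.0703 CPM, with mouse 20 far above the rest. Madcam1, an adhesion molecule of gut and lymphoid venules, had 11 to 30 counts with the IL-27 vector and 0 without it, at least 6.54-fold higher against the floor of 3 counts per library. Prn, which spans the prion genes Prnp and Prnd and can share their reads, measured 0.496 to 0.548 CPM against 0 to 0.0416 CPM. Kcnj15, an inward rectifier potassium channel, measured 0.0765, 0.183 and 0.276 CPM against 0.540, 1.93 and 0.942 CPM, and Apol7e, an apolipoprotein L family gene, 0.268, 0.130 and 0.303 CPM against 0.887, 0.831 and 0.577 CPM. Adprhl1 and Nr1i3 had log2 fold changes without mouse 20 of 0.79 and 2.12, against 1.16 and 3.43 with it, and Kcnj15 and Apol7e of −2.31 and −1.82, against −2.65 and −1.71.

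Whether the IL-27 vector acts differently with cabo than without it was tested as an interaction over the 12 day 14 tumors, which include the 6 described above. The test called 0 of 19899 genes with edgeR (lowest adjusted p 0.871), with 375 at an unadjusted p under 0.05, of which 279 were higher (1.4%); DESeq2 called 3. Without mouse 20 edgeR again called 0 of 20523 genes. The unadjusted p was then under 0.05 in 578, of which 334 were higher (1.63%). The leading genes were Gm13304, Fndc9 and Cdh19 (higher) and Fam124b, Zfp759 and Dnah6 (lower). In 5 of these 6 genes 1 of the 4 groups was at 0 counts. Zfp759 had counts in every group, and its interaction was −2.22 on the log2 scale (SE 0.50, edgeR adjusted p = 0.952).

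Without cabo, interferon genes had lower values with the IL-27 vector, none past the adjusted threshold. Between IL-27 and control tumors at day 14, edgeR called 0 of 18519 genes, with 169 higher (0.913%) and 342 lower (1.85%) at an unadjusted p under 0.05, and DESeq2 called 3. Of the 33 type I interferon-stimulated genes, 19 were lower and 0 higher at that p, with a median of −1.09, and of the 17 GTPases tested 5 were lower, with a median of −1.17. The interaction itself had a median of 1.26 over the 33 interferon-stimulated genes, 9 of which were higher at an unadjusted p under 0.05 (1.4% of all genes were) and 0 at an adjusted one. Without mouse 20 this median was 1.24, with 13 genes higher at that p (1.63% of all genes were). Over the 18 GTPases tested the interaction had a median of 0.80, and 1.02 without mouse 20, with 0 genes at that p in either fit. For Isg15 the interaction was 2.30 and for Irf7 1.74, and without mouse 20 they were 1.26 and 1.58. The muscle list had a median of 3.01 without cabo and of 1.04 with it, and an interaction median of −1.84 with 0 genes at an unadjusted p under 0.05 (−2.59 without mouse 20). The IL-27 group of this comparison holds mouse 8, whose rank correlation with transcript length was close to that of mouse 20. Its deviation was smaller by other measures. Ribosomal protein genes took 5.29% of its counts, against 13.73% in mouse 20. Its correlations within its group were 0.988 and 0.990, against 0.957 and 0.960 for mouse 20. Without mouse 8, left out after the data were seen, 31 of the 33 interferon-stimulated genes were lower at an unadjusted p under 0.05 (3.94% of all genes tested were), with a median of −1.76 and an interaction median of 2.03. The 18 GTPases then had a median of −1.97, with 14 lower at that p. Their interaction median was 1.68, with 5 higher at that p (655 of 20656 genes over all). The muscle list changed sign without mouse 8, to a median of −0.38 without cabo and an interaction median of 1.60. The part of the length trend in these values was not tested.

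At EOS, interferon genes had higher values in the 2 IL-27+cabo tumors than in the 2 cabo tumors, none past the adjusted threshold of edgeR. It called 0 of 20026 genes, with 486 higher (2.43%) and 612 lower (3.06%) at an unadjusted p under 0.05, and DESeq2 called 109. At that p, 20 of the 33 type I interferon-stimulated genes were higher and 0 lower (median 1.46), and 12 of the GTPases were higher (median 1.62). The change at day 14 minus that at EOS had a median of −1.52 over the 33 genes, with 8 lower at an unadjusted p under 0.05 (248 of 21563 genes, 1.15%, over all) and 0 at an adjusted p under 0.05. Without mouse 20 that median was −1.39, with 6 lower (1.23% of all genes were). The adipocyte list was lower at EOS as well (median −2.24, 5 of its genes at an unadjusted p under 0.05), as was the hypoxia list (median −0.55, 2 genes). The muscle list had the opposite sign at EOS (median −1.53). Day 14 tumors were taken at a set day and EOS tumors when each mouse reached its endpoint, so time and tumor burden cannot be told apart.

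**Figure D5:**
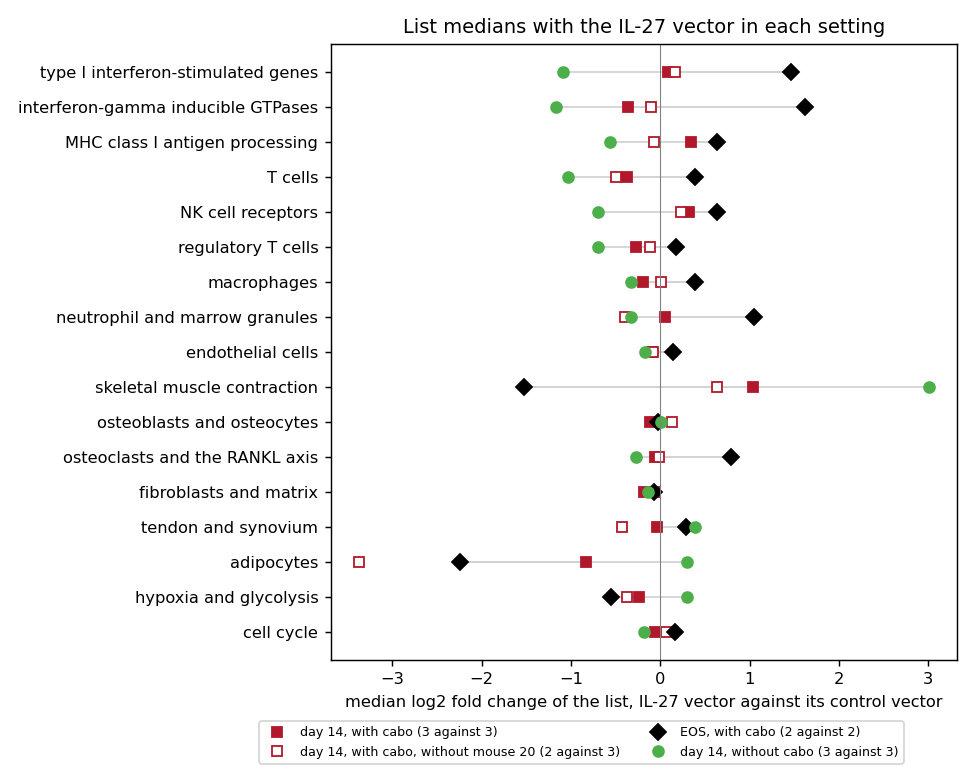
Median log2 fold change of 17 gene lists (x axis) with the IL-27 vector against its control vector, at day 14 with cabo (red squares, open without mouse 20), at EOS with cabo (black diamonds) and at day 14 without cabo (green circles). The interferon lists lie at −1.09 and −1.17 without cabo, at 0.09 and −0.36 with cabo at day 14, and at 1.46 and 1.62 with cabo at EOS. Cabo dosing had ended before EOS.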

How the data were processed

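Tumors of TC2Ras cells were profiled by stranded poly(A) RNA sequencing (RNA integrity checked). The authors deposited one table of raw read counts per gene; the submitters' processing notes list FastQC, HISAT2, StringTie and DESeq2, with no versions. The counting program and annotation are not given in the sources used here. The notes list the human build GRCh38, but the gene identifiers are mouse; 55141 of 55401 matched GENCODE M21 (GRCm38), whose coordinates are used. Between 30.45% and 35.48% of counts from 1 to 20 per library were multiples of 4.

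Counts were filtered with filterByExpr, scaled by TMM and tested with edgeR 4.0.16 (quasi-likelihood F test, R 4.3.3) with Benjamini-Hochberg adjustment over all genes tested. DESeq2 1.42.0 was an alternative. The interaction was fitted over the 12 day 14 tumors, the EOS comparison over 8 EOS tumors and the time difference over 20 intratibial tumors. Depth was 63729005 to 75305934 counts per library over these 20. Scripts were checked on simulated counts.

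Genes named were the 10 higher and 10 lower protein-coding genes with the lowest p among those whose groups did not overlap, the IL-27 list, and genes of the lists with low p; exceptions are said. The members and lists were chosen with earlier results of these data known. Groups came from the labels; subcutaneous tumors were left out.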

Additional observations from a re-analysis of the deposited data

How the results depend on the processing

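The count of genes with an adjusted p under 0.05 stayed at 0 with edgeR under every alternative tried for the IL-27+cabo against cabo comparison but 1: it was 1 (Zfp759) with all intratibial groups in one fit. With DESeq2 it was 3, and 66 with mouse 20 left out; DESeq2 also gave 3 for the interaction, 3 for IL-27 against control and 109 at EOS. DEGs higher and lower, 180 and 13 as reported, became 666 and 80 with DESeq2, 368 and 84 with no filter on low counts, 703 and 51 with all day 14 groups in one fit, 791 and 106 with all intratibial groups, 32 and 96 with the muscle score as a covariate, 51 and 37 with the marrow granule score, 118 and 16 with the trend with GC content and length removed, 97 and 5 with counts divided by 4, and 303 and 48 with the limit not on the log2 scale, chosen after seeing the data. Leaving out 1 tumor gave 67 to 1019 higher and 13 to 85 lower: 67 and 85 without mouse 20, 1019 and 68 without mouse 22, 877 and 66 without mouse 24, 132 and 13 without mouse 21, 104 and 25 without mouse 25, and 71 and 19 without mouse 27. Where 2 tumors remained in a group, their spread was pooled with the other group's. With mouse 20 left out, alternatives chosen after seeing the data gave 113 and 145 with DESeq2, 58 and 89 with the length and GC trend removed, and 85 and 97 with all day 14 groups. The cause of these shifts was not tested.

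Of 1197 pairs of a named gene and an alternative, 1136 kept the sign and the side of the threshold, 20 passed the threshold under the alternative and 41, in 19 genes, changed sign. With the muscle score as a covariate the log2 fold change was −0.43 for Il27, −0.28 for Ebi3, 0.24 for Il27ra, 0.15 for Il6st, 0.02 for Jak1 and Stat5b, 0.09 for Tyk2, 0.23 for Stat5a, −0.91 for Il10, 0.64 for Il12rb2, −0.03 for Tnni2, −0.08 for Pvalb, −0.53 for Isg15, −0.05 for Irf7 and −0.21 for Cxcl10; with the marrow granule score it was −0.38 for Il10. With the length and GC trend removed it was −0.17 for Ebi3 and 0.0044 for Entpd1. In the fits without mouse 20 (edgeR, DESeq2, the trend removed, all day 14 groups) it was −0.06, −0.06, −0.10 and −0.06 for Ebi3, 0.07, 0.07, 0.02 and 0.07 for Il27ra, −0.72, −0.73, −0.78 and −0.72 for Il10, and 0.23, 0.23, 0.18 and 0.23 for Il12rb2. Over the fits that left out 1 tumor it ran from −0.06 to 0.49 for Ebi3, −0.27 to 0.07 for Il27ra, −1.13 to 0.0035 for Tbx21, −0.72 to 1.11 for Il10, −1.09 to 0.23 for Il12rb2, −0.37 to 0.09 for Entpd1, −1.03 to 0.36 for Gbp2, −1.67 to 0.26 for Cxcl9 and −0.08 to 0.48 for Cxcl10. Without mouse 25 it was 0.0035 for Tbx21, 0.09 for Entpd1, 0.36 for Gbp2 and 0.26 for Cxcl9; without mouse 21 it was 0.06 for Il27ra and −0.03 for Cxcl10, and without mouse 22 −0.08 for Cxcl10. No paired analysis was possible because the mouse numbers of the groups compared are all different.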
